A study of Homo sapiens with 11 samples.

Results

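The cluster of miR-183, miR-96 and miR-182 comprises 3 microRNA (miRNA) hairpins that lie next to each other on chromosome 7 and are commonly transcribed as a single primary transcript. Its 4 members followed here were the mature miRNAs miR-183-5p, miR-183-3p, miR-96-5p and miR-182-5p, taken by name from 2588 mature miRNAs listed for each library. They were measured by small RNA-seq in 6 human tumor cell lines, all of them parental lines with no knockdown or other treatment: PANC-1 from pancreas, Hep-G2 from liver, BE(2)-C from neuroblastoma, MV3 from melanoma, ES-2 from ovary and A-549 from lung. PANC-1 was represented by 1 library and each of the other 5 lines by 2 replicate libraries, which gives 11 libraries. The PANC-1, MV3, ES-2 and A-549 libraries were made with a NEXTflex small RNA kit from 50 ng of total RNA, whereas Novogene, a sequencing provider, prepared those of BE(2)-C and Hep-G2, so that the preparation cannot be told apart from the line wherever a comparison spans both sets. RNA was harvested 48 h after seeding, except that 24 h is given for BE(2)-C in the treatment protocol and 48 h in its sample characteristics.

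Each hairpin is cut by Drosha and Dicer into a short duplex, of which usually the strand from the 5′ arm is kept by an Argonaute protein. The retained strand then recognizes messenger RNAs mainly through its seed, the bases close to its 5′ end, and represses them. The cluster is best known from sensory organs, where it is abundant in hair cells of the inner ear, photoreceptors and sensory neurons. Mutations in the seed of miR-96 cause inherited hearing loss, and the cluster is often elevated in epithelial tumors.

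The mature sequences are shown because the hairpins share transcription but differ in their seeds, and because their names alone hide how alike they are. They are given 5′ to 3′ as in RefSeq for GRCh38.p14, with the seed (bases 2 to 8) in capitals, and all 4 members matched an entry of that table. miR-1271-5p, which is encoded elsewhere, is added because it carries the seed of miR-96-5p.
miR-183-5p: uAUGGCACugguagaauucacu
miR-96-5p: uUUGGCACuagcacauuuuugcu
miR-182-5p: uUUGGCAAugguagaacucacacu
miR-183-3p: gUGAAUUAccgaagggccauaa
miR-1271-5p: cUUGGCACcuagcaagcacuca

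Counted from 1 at the 5′ end, the seed of miR-96-5p differs from that of miR-183-5p by A2U, and the seed of miR-182-5p differs from that of miR-96-5p by C8A. Thus, both substitutions, A2U and C8A, separate the seeds of miR-183-5p and miR-182-5p. Beyond the seed, miR-183-5p and miR-182-5p were the more similar pair, with 18 of 22 bases identical when aligned from the 5′ end without gaps. For miR-183-5p and miR-96-5p, 13 of 22 bases were identical. miR-96-5p and miR-1271-5p had the same seed but shared only 9 of 22 bases over their length and already differed at the first base, by U1C. No other mature miRNA of the RefSeq table carried the seed of miR-183-5p or that of miR-182-5p.

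In GRCh38 with GENCODE release 44, all 3 hairpins lie on the minus strand of chromosome 7. MIR183 (ENSG00000207691.1) spans chr7:129774905-129775014, MIR96 (ENSG00000199158.1) spans chr7:129774692-129774769, and MIR182 (ENSG00000207990.3) spans chr7:129770383-129770492. Only 135 bases separate MIR183 from MIR96, whereas 4199 bases separate MIR96 from MIR182. The 3 hairpins lie in an intron of the long non-coding RNA gene ENSG00000286380.3, which is transcribed from the same strand and in which 1 of 5 annotated transcripts spans them.

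The libraries held 1173902 to 12137452 miRNA reads (median 2670030). Levels are given as CPM, that is, reads of a miRNA after scaling each library to 1000000 miRNA reads. Where no read was found, up to 3 reads remain possible, equal to 0.247 to 2.56 CPM depending on the library. The libraries differed in how much of this total a single miRNA took: miR-21-5p held 64.2% to 65.0% of the reads in A-549 and 27.0% to 33.5% in ES-2, MV3 and PANC-1, miR-148a-3p held 72.6% to 75.3% in Hep-G2, and the most abundant miRNA of BE(2)-C, miR-381-3p, 11.6% to 14.3%. Markers fitted the label most clearly for BE(2)-C, in which the 3 neural miRNAs listed (miR-124-3p, miR-9-5p and miR-218-5p) summed to 84656 and 105820 CPM. Little of this sum was miR-124-3p. Its log2 difference of ES-2 minus BE(2)-C was -4.54 in CPM, against -6.03 for miR-9-5p and -7.20 for miR-218-5p. In Hep-G2 the 3 liver miRNAs listed summed to 15835 and 16456 CPM, although liver-specific miR-122-5p made up only 64.0 and 50.0 CPM of it. As log2 differences of A-549 minus Hep-G2 in CPM, miR-192-5p was at -2.54 but miR-194-5p at 3.04, so that the latter was higher in A-549. The melanocyte miRNA miR-211-5p had 0 reads in MV3 and in all other libraries, and the acinar pancreas miRNAs miR-216a-5p and miR-217 had 0 reads in PANC-1. Lung and ovary had no marker list.

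The cluster was well expressed in 5 of the 6 lines and low in BE(2)-C. Summed over the 4 members, it reached 11117 CPM in PANC-1, 7176 ± 542 CPM (SD, n = 2) in MV3, 6265 ± 391 CPM in A-549, 3210.3 ± 134 CPM in Hep-G2 and 4456 ± 148 CPM in ES-2. In BE(2)-C the sum was 71.0 ± 13.3 CPM. This corresponds to 1.11% of all miRNA reads in PANC-1 against 0.00710% in BE(2)-C. Since whole cultures were sequenced, fewer cells with the cluster and less of it per cell cannot be told apart.

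hsa-miR-183-5p is the guide strand of the hairpin closest to the start of the transcript. It stood at 1914 and 1883 CPM in the A-549 libraries, at 1765 and 1838 CPM in ES-2, and at 3021 and 3262 CPM in MV3. PANC-1 had 4713 CPM, and the Hep-G2 libraries had 1132 and 1173 CPM. Only 33.6 and 25.5 CPM were found in BE(2)-C, from 253 and 167 reads. The replicates of a line lay close together, and no BE(2)-C library overlapped with a library of another line. By rank, miR-183-5p was the 19th most abundant miRNA in both Hep-G2 libraries, between the 32nd and 43rd in the NEXTflex libraries, and the 287th and 325th in BE(2)-C. The CPM order was PANC-1, MV3, A-549, ES-2, Hep-G2 and BE(2)-C, in which the neighbors A-549 and ES-2 did not differ beyond the error of the fit (log2 difference 0.08 ± 0.16, adjusted p = 0.725 by limma).

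hsa-miR-182-5p, the guide strand of the hairpin farthest from MIR183, was the most abundant member in every library. Its level was 3919 and 4544 CPM in A-549, 2511 and 2635 CPM in ES-2, and 3705 and 4159 CPM in MV3. A single PANC-1 library gave 6314 CPM, and Hep-G2 gave 1907 and 2042 CPM. BE(2)-C again stood apart with 39.2 and 26.9 CPM, from 295 and 176 reads. A-549 and MV3 overlapped, whereas ES-2 and Hep-G2 each lay below them. In rank, miR-182-5p was the 11th and 12th most abundant miRNA of Hep-G2 and the 279th and 319th of BE(2)-C. In the CPM order, neither A-549 and MV3 (0.10 ± 0.19, adjusted p = 0.7 by limma) nor ES-2 and Hep-G2 (0.38 ± 0.19, adjusted p = 0.135) differed beyond the error of the fit.

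hsa-miR-96-5p, the member whose seed is mutated in hereditary deafness, was far less abundant than its neighbors although its hairpin lies between theirs. It was read at 138 and 109 CPM in A-549, at 58.3 and 73.2 CPM in ES-2, and at 42.6 and 103 CPM in MV3. PANC-1 gave 73.4 CPM and Hep-G2 76.3 and 89.2 CPM. In BE(2)-C the level was 7.58 and 8.72 CPM, which was 57 reads in either library. In CPM both A-549 libraries lay above all others and ES-2 lay below Hep-G2, while the MV3 replicates, from 50 and 159 reads, spanned the values of ES-2, PANC-1 and Hep-G2.

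hsa-miR-183-3p is the strand of the MIR183 duplex that is usually discarded, and it was the rarest member. Its level was 18.0 and 5.34 CPM in A-549, 17.4 and 14.4 CPM in ES-2, 24.7 and 36.1 CPM in MV3, and 16.4 CPM in PANC-1. The Novogene libraries held almost none: 0.673 and 1.07 CPM in Hep-G2, from 8 and 13 reads, and 0 and 3 reads in BE(2)-C, in which 0 reads allow up to 0.399 CPM. miR-183-3p passed the filter used below, a mean of 10 CPM in at least 1 line, through NEXTflex lines only. All 7 NEXTflex libraries lay above all 4 Novogene libraries, a split in CPM that follows the preparation as much as the lines, and under TMM A-549 replicate 2 fell into the range of Hep-G2.

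**Figure D1:**
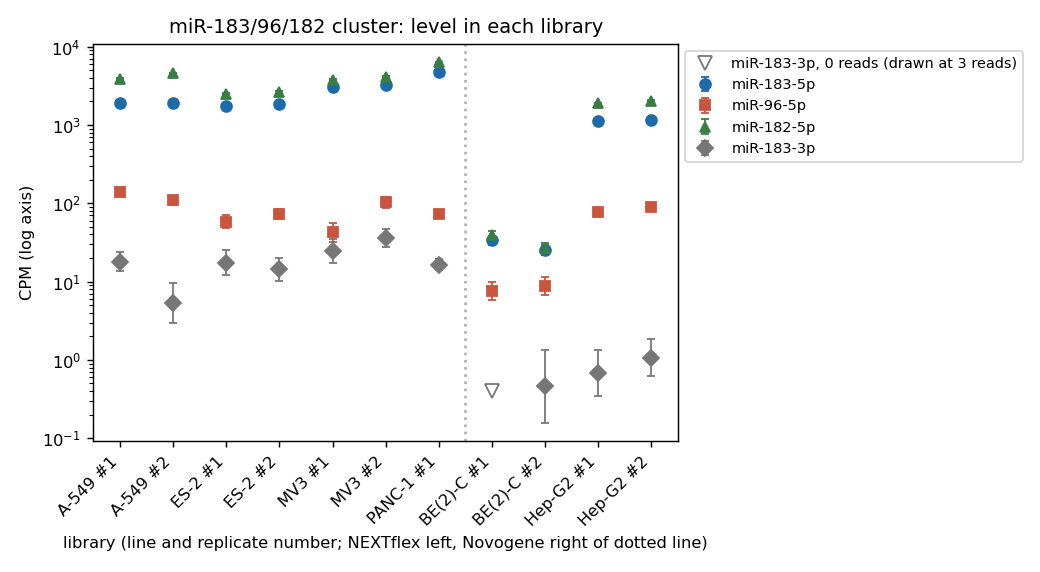
Level of the 4 members in each of the 11 libraries, in CPM on a log axis. Points are single libraries, bars are 95% Wilson intervals that cover counting error only, and the open triangle marks 0 reads, drawn at the level of 3 reads. All members are lowest in BE(2)-C, miR-182-5p lies above miR-183-5p throughout, and miR-96-5p lies well below both.

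Whether the members differed between lines was tested with limma, fitted on log2(CPM + 1) over all 546 miRNAs that reached a mean of 10 CPM in a line, with Benjamini-Hochberg adjustment over all of them. All 4 members passed the moderated F test across the 6 lines. The adjusted p was 1.31e-07 for miR-183-5p, 2.03e-07 for miR-182-5p, 0.000262 for miR-183-3p and 0.000359 for miR-96-5p. However, 99.3% of all tested miRNAs passed this test, so the count says little about the cluster. With BE(2)-C left out, miR-96-5p no longer passed (adjusted p = 0.281), so that its call in CPM rested on that line.

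Within the 4 NEXTflex lines, which share a preparation, 2 of the 4 members passed the F test, compared to 85.4% of the 453 miRNAs tested there. These were miR-183-5p (limma, adjusted p = 0.00016) and miR-182-5p (adjusted p = 0.00184), whose levels were highest in PANC-1 in CPM, although A-549 exceeded it in miR-182-5p under TMM. miR-96-5p (adjusted p = 0.293) and miR-183-3p (adjusted p = 0.258) missed the threshold. Under the alternatives the adjusted p ranged from 1.29e-06 to 0.721 for miR-96-5p, which passed with edgeR, with DESeq2 and without MV3 replicate 2. For miR-183-3p it ranged from 0.0626 to 0.914, and none of 16 alternatives passed.

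The deficit of BE(2)-C was the largest difference of the cluster. Against Hep-G2, the only line with the same preparation, miR-183-5p was lower in BE(2)-C by a log2 difference of -5.25 ± 0.16 (SE, adjusted p = 1.12e-07 by limma). For miR-182-5p the log2 difference was -5.88 ± 0.19 (adjusted p = 1.25e-07) and for miR-96-5p -3.19 ± 0.40 (adjusted p = 0.000123). In total, 3 of the 4 members were called lower in BE(2)-C, compared to 8.24% of all tested miRNAs called in that direction and 83% called in either. miR-183-3p, at 0 to 13 reads in these 4 libraries, was too rare for a fold. The direction held under TMM scaling (the trimmed mean of M-values), with -8.23, -8.87 and -6.11 for miR-183-5p, miR-182-5p and miR-96-5p, and under quantile scaling. It also ran against the bulk of miRNAs, whose median log2 difference was 2.79 in CPM in favor of BE(2)-C and 0.49 under TMM. Relative to the CPM median, miR-183-5p lay at -8.04, miR-182-5p at -8.68 and miR-96-5p at -5.99.

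The NEXTflex lines with replicates gave the same picture, although here the preparation differs as well. Taking A-549, MV3 and ES-2 in turn, all 4 members were called higher than in BE(2)-C, compared to 22.3%, 32.4% and 26.4% of all tested miRNAs called in that direction and 76.7%, 78% and 77.5% called in either, and this direction held in CPM, under TMM and under quantile scaling. The log2 difference of miR-183-5p was 5.97 ± 0.16 for A-549, 5.89 ± 0.16 for ES-2 and 6.69 ± 0.16 for MV3. For miR-182-5p it was 6.98 ± 0.19, 6.26 ± 0.19 and 6.87 ± 0.19. miR-96-5p differed less, by 3.76 ± 0.40, 2.86 ± 0.40 and 2.88 ± 0.40. Over all miRNAs tested, the median log2 difference was negative in CPM in these 3 pairs, at -1.38, -1.08 and -0.48. For miR-183-3p, with 3 reads in BE(2)-C in all, the fitted difference depends on the pseudocount and is not given. Its direction was fixed by the filter, which it passed through NEXTflex lines alone, so its call adds no support. These comparisons share the BE(2)-C libraries and are not independent of each other.

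The BE(2)-C libraries themselves were uneven in miRNAs of other tissues. The 3 liver miRNAs listed summed to 2271 CPM in replicate 1 and 842 CPM in replicate 2, with miR-122-5p at 823 and 5.96 CPM. Of 4 blood cell miRNAs listed, 3 had reads in replicate 1 and 2 in replicate 2, and their sum was 301 and 46.5 CPM, almost all of it miR-451a. Other lines had such reads too: the liver miRNAs summed to 4762 and 4486 CPM in A-549, and the blood cell miRNAs to 326 and 286 CPM in ES-2, almost all of it miR-142-3p. Within BE(2)-C, miR-144-3p had 0 reads in either library and miR-223-3p at most 0.399 CPM. The members of the cluster were low in both replicates. With either BE(2)-C library left out, the log2 differences of miR-183-5p, miR-182-5p and miR-96-5p stayed positive for A-549, ES-2 and MV3. Those of miR-183-3p did too, but the filter had fixed its direction, so it adds no support.

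**Figure D2:**
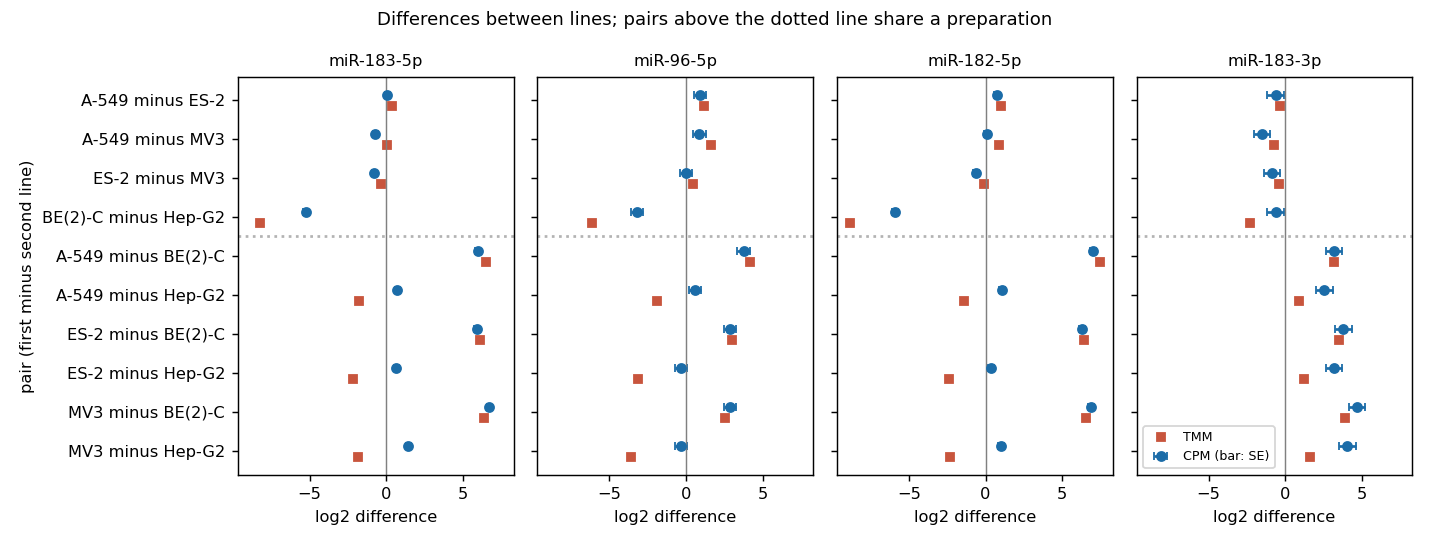
Log2 differences of the 4 members for the 10 pairs of lines with 2 libraries each, the first named line minus the second. Circles are the values on log2(CPM + 1) with their SE and squares the values under TMM scaling, and miR-183-3p differences involving BE(2)-C depend on the pseudocount. Differences to BE(2)-C keep their direction under both scalings, while miR-183-5p and miR-182-5p change sign against Hep-G2.

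The order of the other 5 lines depended on the scaling, and above all the place of Hep-G2 did. In CPM, Hep-G2 had the lowest miR-183-5p (1152 ± 28.9 CPM) and miR-182-5p (1974 ± 95.7 CPM) of these 5 lines. Under TMM it had the highest of all lines, 6106.0 for miR-183-5p, 10440.5 for miR-182-5p and 435 for miR-96-5p, and it was also highest under quantile scaling. The TMM factors were 0.166 and 0.217 in Hep-G2, and 1.02 to 1.87 in the other lines. The 5 most abundant miRNAs took at least 94.7% of the reads in Hep-G2 and 40.4% to 76.3% elsewhere, but outside Hep-G2 the factors were not in the order of this share. Its part in the place of Hep-G2 was not tested.

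Compared to Hep-G2, in CPM 3 members were called higher in A-549, 2 were in ES-2 and 3 were in MV3, where 55.7%, 48.5% and 58.2% of all tested miRNAs were called higher and 67.6%, 60.8% and 69.6% in either direction. Each of these counts of members includes miR-183-3p. For miR-183-5p the log2 differences were 0.72 ± 0.16, 0.64 ± 0.16 and 1.45 ± 0.16 in CPM, but they turned to -1.76, -2.15 and -1.84 under TMM. miR-182-5p likewise turned from 1.10 ± 0.19, 0.38 ± 0.19 and 0.99 ± 0.19 to -1.39, -2.41 and -2.29, although the CPM value for ES-2 had missed the threshold (adjusted p = 0.135). miR-96-5p passed in none of the 3 pairs in CPM, at 0.57 ± 0.40 for A-549, -0.33 ± 0.40 for ES-2 and -0.31 ± 0.40 for MV3 (adjusted p = 0.245, 0.539 and 0.545 by limma). Under TMM it was called lower than in Hep-G2 in all 3, by -1.90, -3.11 and -3.56 (adjusted p = 0.0026, 0.000153 and 7.62e-05), and under quantile scaling the values were -2.04, -2.57 and -3.01. The median log2 difference of all tested miRNAs in these pairs was 1.55, 1.02 and 1.91 in CPM, so that miR-183-5p and miR-182-5p lay below the median miRNA in each of them, by 0.37 to 0.92 log2. Of all called miRNAs, 82.4%, 79.8% and 83.7% were higher in the NEXTflex line in CPM, against 54.9%, 49.7% and 53.4% under TMM. miR-183-3p kept its direction, higher in the NEXTflex lines by 2.56 ± 0.53, 3.18 ± 0.53 and 4.05 ± 0.53 in CPM and by 0.93, 1.25 and 1.65 under TMM, where only MV3 passed (adjusted p = 0.0266). The filter fixed this direction, as miR-183-3p passed it through NEXTflex lines alone.

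**Figure D3:**
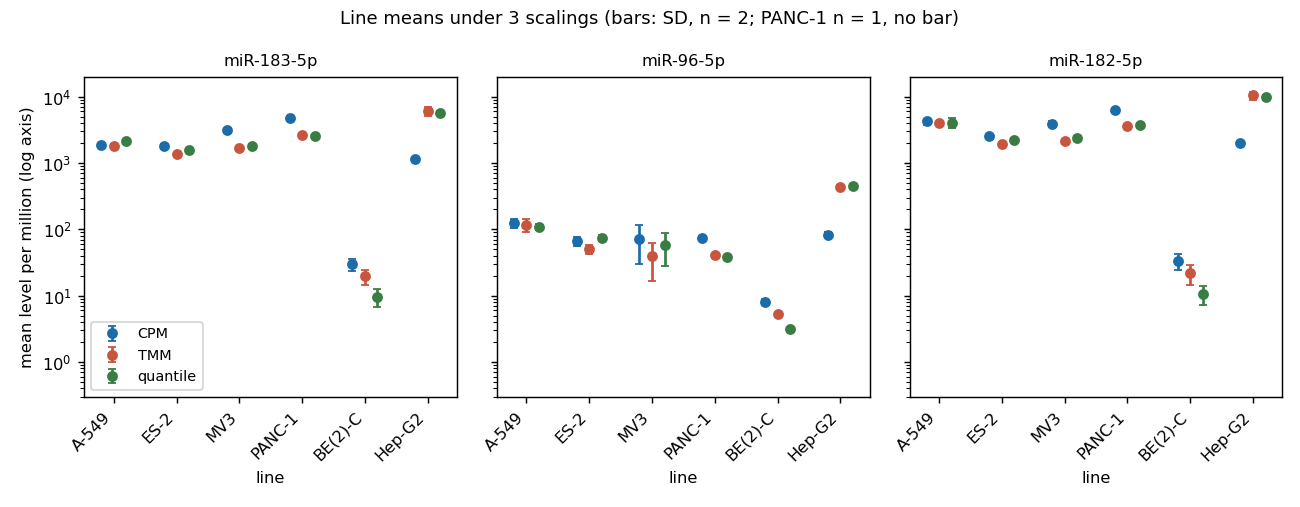
Mean level of the 3 guide strands in each line under CPM, TMM and quantile scaling, in scaled reads on a log axis, with SD over 2 libraries (PANC-1 has 1 library and no bar). BE(2)-C is lowest under each scaling, whereas Hep-G2 moves from the lowest of the other 5 lines in CPM to the highest under TMM and quantile scaling for miR-183-5p and miR-182-5p.

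Among A-549, ES-2 and MV3, which share a preparation, which members were called depended on the scaling. Between A-549 and ES-2, only miR-182-5p passed in CPM (50.5% of all tested miRNAs did), higher in A-549 by 0.71 ± 0.19 (adjusted p = 0.0171), and it was higher under TMM (1.03, adjusted p = 0.00679) and quantile scaling as well. This call was lost without A-549 replicate 2 and without either ES-2 library. miR-96-5p, at 0.90 ± 0.40 in CPM (adjusted p = 0.0985), was called higher in A-549 under TMM (1.21, adjusted p = 0.0344) but not under quantile scaling (0.54, adjusted p = 0.225). Between A-549 and MV3, 2 members were called lower in A-549, where 37.4% of all tested miRNAs were (57.3% in either direction). One was miR-183-5p, by -0.73 ± 0.16 in CPM (adjusted p = 0.00593), which changed its sign under TMM (0.08) and quantile scaling (0.23), neither past the threshold. The other was miR-183-3p, by -1.49 ± 0.53 in CPM (adjusted p = 0.0449), with the same sign under TMM (-0.72, adjusted p = 0.316). It was also called lower in A-549 under quantile scaling (-1.42, adjusted p = 0.0274 by limma). However, 17 of 22 alternatives lost this call of miR-183-3p, among them the fit on the NEXTflex libraries alone (adjusted p = 0.0918 by limma). Conversely, the members called under both TMM and quantile scaling were higher in A-549 than in MV3. miR-96-5p was at 0.88 ± 0.40 in CPM (adjusted p = 0.0965), 1.66 under TMM (adjusted p = 0.00918) and 0.98 under quantile scaling (adjusted p = 0.0442). miR-182-5p was at 0.10 in CPM, 0.91 under TMM (adjusted p = 0.0132) and 0.75 under quantile scaling (adjusted p = 0.0243). Between ES-2 and MV3, miR-183-5p (-0.80 ± 0.16, adjusted p = 0.00677) and miR-182-5p (-0.61 ± 0.19, adjusted p = 0.048) were called lower in ES-2, where 23.8% of all tested miRNAs were (32.8% in either direction), and neither passed under TMM or quantile scaling. The medians of all tested miRNAs were -0.17, -0.47 and -0.36 in CPM for these 3 pairs and 0 under TMM, and the share of calls higher in the first line moved from 46.7%, 34.8% and 27.4% to 55.0%, 56.1% and 47.3%. In PANC-1, the level of miR-183-5p (4713 CPM) and miR-182-5p (6314 CPM) exceeded all other libraries in CPM, but with 1 library no pair was tested and Hep-G2 exceeded it under TMM.

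Ratios between members within a library do not depend on how libraries are scaled, and they allow the hairpins of the shared transcript to be compared directly. The ratio of miR-182-5p to miR-183-5p was 2.05 and 2.41 in A-549, 1.42 and 1.43 in ES-2, and 1.23 and 1.28 in MV3. PANC-1 gave 1.34 and Hep-G2 1.68 and 1.74. In BE(2)-C the ratio was 1.17 (95% Wilson interval 0.986 to 1.38) and 1.05 (0.853 to 1.30). Hence, both BE(2)-C intervals included 1, and over all lines the ratio stayed between 1.05 and 2.41, while miR-183-5p ranged 159-fold and miR-182-5p 191-fold between line means in CPM.

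These ratios still differed between lines beyond the replicate spread. Exact permutation of the 11 libraries among the lines, with 10395 possible assignments and the F statistic of line as the measure, gave p = 0.000192 for miR-182-5p to miR-183-5p (adjusted p = 0.00077 over 4 ratios). Line means spanned 1.00 on the log2 scale, with A-549 highest and BE(2)-C lowest, and the largest SD of a line was 0.17. Within the NEXTflex lines they spanned 0.83, from A-549 down to MV3, and the exact p was 0.00952, which is the smallest these 7 libraries allow (adjusted p = 0.0381), a call lost with the Kruskal-Wallis statistic (exact permutation, adjusted p = 0.133). The 4 Novogene libraries alone, 2 against 2, cannot reach the threshold in such a test. Since ligation and sequencing favor some sequences over others, a ratio of reads is not a ratio of molecules, and a ratio that spans preparations carries that difference too.

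The proportion of miR-96-5p varied far more. miR-183-5p exceeded miR-96-5p 13.9-fold and 17.2-fold in A-549, 30.3-fold and 25.1-fold in ES-2, and 70.9-fold and 31.8-fold in MV3. In PANC-1 it was 64.3-fold and in Hep-G2 14.8-fold and 13.1-fold. In BE(2)-C it was only 4.44-fold and 2.93-fold, so that the BE(2)-C libraries had proportionally the most miR-96-5p and did not overlap with any other library. Expressed as a share of the cluster, miR-96-5p made up 9.42% (95% Wilson interval 7.34 to 12.01) and 14.1% (11.1 to 17.9) of the cluster reads in BE(2)-C, and at most 2.70% elsewhere. miR-183-5p accounted for 28.8% to 44.5% and miR-182-5p for 43.7% to 69.5% in the 11 libraries.

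Across the 6 lines the ratio of miR-96-5p to miR-183-5p spanned 4.16 on the log2 scale (exact permutation p = 0.00452, adjusted p = 0.00904), from BE(2)-C down to PANC-1. For miR-96-5p to miR-182-5p the span was 4.44 (exact permutation p = 0.0122, adjusted p = 0.0163), which was lost with the Kruskal-Wallis statistic (adjusted p = 0.0721). Within the NEXTflex lines neither passed (exact permutation, adjusted p = 0.229 and 0.362), and the MV3 replicates alone had an SD of 0.81 for the former. Against the same preparation, the 2 BE(2)-C values of miR-96-5p to miR-183-5p, 0.225 and 0.341, lay above the Hep-G2 values of 0.0675 and 0.0761. The miR-96-5p level behind the BE(2)-C ratios was 57 reads per library.

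**Figure D4:**
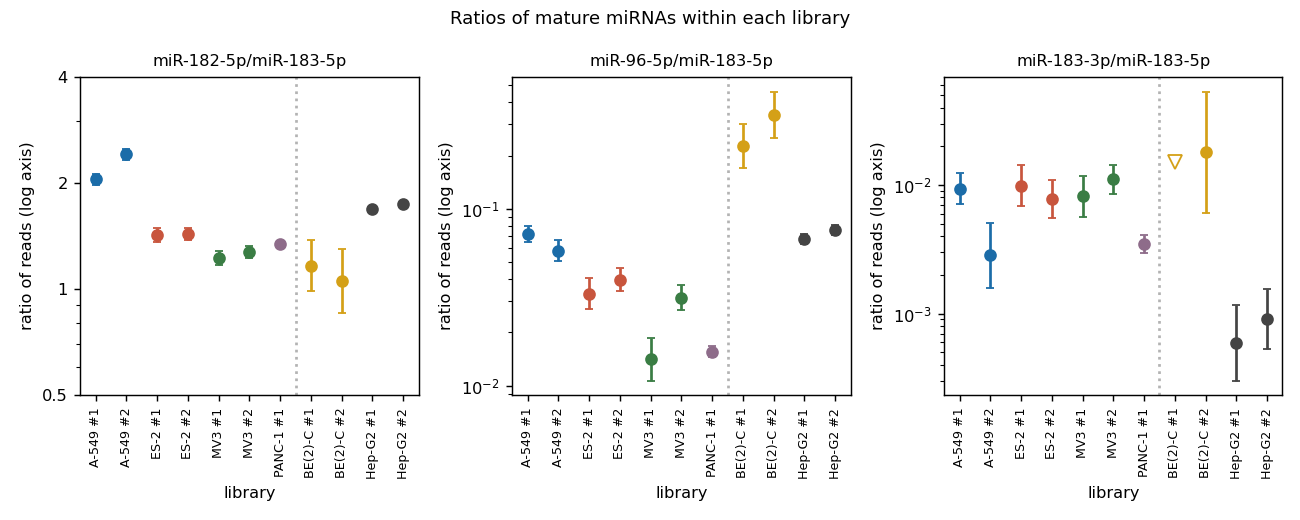
Ratios of reads within each library on log axes, for miR-182-5p, miR-96-5p and miR-183-3p relative to miR-183-5p. Points are libraries colored by line, bars are 95% Wilson intervals for counting error, the dotted line separates NEXTflex from Novogene libraries, and the open triangle is the upper bound where miR-183-3p had 0 reads. The first ratio stays between 1.05 and 2.41, whereas the second is highest in BE(2)-C.

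The 5′ arm dominated each hairpin. miR-183-3p made up 0.283% to 1.10% of the MIR183 reads in the NEXTflex libraries and 0.0595% and 0.0913% in Hep-G2. In BE(2)-C the share was 0% (upper bound 1.496%) and 1.76% (0.602 to 5.06), too few reads to place it. Across the 6 lines the ratio of miR-183-3p to miR-183-5p missed the threshold (exact permutation, adjusted p = 0.185), and it did so within the NEXTflex lines (adjusted p = 0.362). Without BE(2)-C replicate 1 or replicate 2 the adjusted p across the lines was 0.0269 or 0.0358, so that these sparse libraries decided it. miR-182-3p made up at most 0.821% of the MIR182 reads, a value found in MV3. miR-96-3p made up as much as 5.08% of the MIR96 reads in ES-2 replicate 2, but it had no more than 9 reads in any library. miR-182-3p stood at 29.9 ± 1.15 CPM (SD, n = 2) in MV3 and was called higher there than in A-549 and ES-2 in CPM (limma, adjusted p = 0.0463 and 0.0298).

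miR-1271-5p, the other carrier of the miR-96-5p seed, was distributed otherwise. It had 0 reads in Hep-G2 and at most 3.92 CPM in A-549 and ES-2. It reached 17.04 and 12.3 CPM in MV3, 7.08 CPM in PANC-1, and 4.65 and 21.3 CPM in BE(2)-C. Of all reads with this seed, miR-96-5p supplied at least 94.9% in A-549, ES-2 and Hep-G2, 91.2% in PANC-1, and 71.4% and 89.3% in MV3. In BE(2)-C its share was 62.0% and 29.1%, so that in replicate 2 more of the seed came from miR-1271-5p.

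Among all tested miRNAs, the line means of miR-183-5p and miR-182-5p resembled each other closely. Over the 6 line means of log2(CPM + 1), their Pearson r was 0.993, and miR-183-5p was the closest of 545 other miRNAs to miR-182-5p. As all points include BE(2)-C, which sets most of the range, the value is a description. Without BE(2)-C it was 0.908 over 5 lines, at rank 43 from the side of miR-183-5p. For miR-96-5p the r with miR-183-5p fell from 0.913 over 6 lines to -0.31 over 5 in CPM, but it was 0.865 and 0.796 under TMM. Outside the cluster, the miRNAs most like the guide strands in CPM were miR-28-3p (r of 0.994 with miR-183-5p, 0.873 with miR-96-5p, 0.976 with miR-182-5p), miR-21-5p (0.947, 0.971 and 0.973) and miR-455-3p (0.926, 0.933 and 0.940). Without BE(2)-C the same values were 0.954, -0.52 and 0.759 for miR-28-3p, 0.344, 0.633 and 0.646 for miR-21-5p, and -0.078, -0.041 and -0.082 for miR-455-3p, so that in CPM the likeness of miR-455-3p rested on BE(2)-C. All of these were also lowest in BE(2)-C: miR-28-3p at 98.2 ± 18.3 CPM against at least 528 CPM elsewhere, miR-21-5p at 12604 ± 204 CPM against at least 178119 CPM, and miR-455-3p at 0.685 ± 0.536 CPM against at least 114 CPM.

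Other miRNAs encoded in the same chromosome band, 7q32, were not uniformly low in BE(2)-C. Of the 8 listed, 7 were tested, and all 7 passed the F test across the 6 lines and within the NEXTflex lines, compared to 99.3% and 85.4% of all tested miRNAs. In CPM, 5 were called higher and 1 lower in A-549 than in BE(2)-C, 6 and 1 in ES-2, and 4 and 1 in MV3. Of all tested miRNAs, 22.3%, 26.4% and 32.4% were called higher in these lines and 54.4%, 51.1% and 45.6% lower. The exception in each pair was miR-129-5p, a miRNA known from brain, at 3724 and 1941 CPM in BE(2)-C against at most 161 CPM in any other library. However, miR-129-5p is also encoded at another locus outside this band with the same mature sequence, so that its reads cannot be assigned to 7q32, and the arm found only at the 7q32 locus, miR-129-1-3p, was at 2.66 and 1.22 CPM in BE(2)-C. miR-29b-3p likewise has a further locus. miR-29a-3p, which represses collagens, was at 253 and 508 CPM in BE(2)-C but lower still in Hep-G2 in CPM, at no more than 112 CPM (higher than BE(2)-C under TMM), a line in which the cluster was well expressed. miR-335-3p, from an intron of MEST, was highest in PANC-1 (1059 CPM), as were miR-183-5p and miR-182-5p in CPM, yet it was at most 0.852 CPM in MV3.

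The epithelial miR-200 family, summed over the 5 miRNAs listed, differed from the cluster in CPM in that PANC-1, ES-2 and MV3 had less of it than A-549 and Hep-G2. For miR-200c-3p, A-549 and ES-2 did not differ beyond the error of the fit (log2 difference 0.26 ± 0.39, adjusted p = 0.604 by limma). Under quantile scaling, miR-200b-3p and miR-182-5p had the same order of the 6 lines, and under TMM Hep-G2 was highest in both. miR-200b-3p, a repressor of the ZEB transcription factors, was at 794 and 833 CPM in A-549 and at 1219 and 1276 CPM in Hep-G2. It was at 93.2 CPM in PANC-1, 14.5 and 25.2 CPM in MV3 and 7.82 and 5.66 CPM in ES-2, although MV3 and ES-2 had miR-183-5p at 1765 to 3262 CPM. BE(2)-C, with 9.97 and 7.03 CPM, overlapped with ES-2. Of the 5 miRNAs listed, 4 were tested, all of which passed across the 6 lines and 3 within the NEXTflex lines, compared to 99.3% and 85.4% of all tested miRNAs. miR-200a-3p and miR-429 passed the filter on low values through A-549 and Hep-G2 alone. In CPM, miR-200b-3p and miR-200c-3p were called lower in BE(2)-C than in Hep-G2, as were 3 members of the cluster and 8.24% of all tested miRNAs. So were miR-200a-3p and miR-429, but the filter fixed their direction, so their calls add no support.

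Neural and sensory miRNAs had the opposite order, with their highest levels in BE(2)-C. Of 6 listed, 5 were tested, and all 5 were called higher in BE(2)-C than in each of the lines A-549, ES-2, MV3 and also Hep-G2 in CPM, compared to 54.4%, 51.1%, 45.6% and 74.7% of all tested miRNAs, and their line means kept this order under TMM. For miR-124-3p and miR-204-5p the direction was fixed by the filter, which they passed through BE(2)-C alone. miR-9-5p, a regulator of neural progenitors, was at 15875 and 17555 CPM in BE(2)-C and at most 1739 CPM elsewhere. miR-7-5p was at 68724 and 35823 CPM against at most 4530.5 CPM. miR-375, a miRNA of neuroendocrine cells, was at 6373 and 4866 CPM against at most 73.6 CPM. The remaining miRNA of the list, miR-211-5p, had 0 reads in every library.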

How the data were processed

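Small RNA-seq was analysed from 11 libraries of 6 untreated cell lines, 2 per line and 1 for PANC-1. The study calls them biological replicates. Groups were taken from the sample labels. Per the submitters' processing notes, cutadapt 1.14, Bowtie2 2.3.2, SAMtools 1.5, featureCounts 1.5.3, edgeR 3.30.3 and the build hg38 were used, and how they were applied to small RNA reads is not given in the sources used here. The authors deposited CPM for PANC-1 and, for the other 5 lines, a scaled signal, in which the CPM of each library had been divided by a factor specific to that library. All nonzero values (100%) were whole multiples of the value of 1 read within a tolerance of 0.01, so that reads were recovered and rescaled to CPM per library.

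In R 4.3.3, limma 3.58.1 (eBayes with trend) was fitted on log2(CPM + 1), which understates changes of rare miRNAs, with cell line as the only factor, for miRNAs averaging 10 CPM or more in any line. Contrasts were two-sided, and the adjusted p (Benjamini-Hochberg over all tested miRNAs) was set against 0.05. Ratios of reads, with 0.5 reads added, were tested by exact permutation (SciPy 1.17.1). On simulated data, 189 of 189 4-fold changes were recovered for A-549 against ES-2. The 443 tested miRNAs included these 189, and 16 of the unchanged ones were called falsely. As an alternative, the count test of edgeR 4.0.16 on the recovered reads called 523 of 546 miRNAs across the 6 lines. Intervals (95%) and floors (3 reads) cover counting error only. Named were the members, the other arms of their hairpins, the miRNA sharing a seed, lists of 7q32, epithelial, neural and marker miRNAs, and the 3 miRNAs most like each guide strand. Members and lists were chosen with earlier results of these data known. Alternatives comprised the scaling, pseudocount, filter, test, samples in the fit, a replicate block and leaving out each library.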

Additional observations from a re-analysis of the deposited data

How the results depend on the processing

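Differences to BE(2)-C were the most stable: of 335 values of single members under the alternatives, 331 kept their direction and their side of the threshold and the other 4 passed it newly. Of 534 values for the other pairs, 42 changed sign, 50 kept their direction but lost the threshold and 28 passed it newly. Under TMM, quantile scaling, edgeR and DESeq2, in this order, the log2 difference of miR-183-5p against Hep-G2 was -1.76, -1.41, -1.84 and -1.78 for A-549, -2.15, -1.86, -2.17 and -2.51 for ES-2, and -1.84, -1.63, -1.91 and -2.13 for MV3. For miR-182-5p it was -1.39, -1.32, -1.46 and -1.41, then -2.41, -2.16, -2.43 and -2.77, and -2.29, -2.08, -2.36 and -2.59. miR-96-5p in A-549 against Hep-G2 gave -1.90, -2.04, -1.97 and -1.92, miR-183-5p in A-549 against MV3 0.075, 0.23, 0.068 and 0.35, and miR-96-5p in ES-2 against MV3 0.45, 0.44, 0.40 and 0.28. The counts of values above include miR-183-3p, whose direction in NEXTflex lines against BE(2)-C or Hep-G2 was fixed by the filter. miR-183-3p in A-549 against ES-2 was 0.22 with DESeq2. On leaving out 1 library, it ranged from -1.41 to 0.17 (the latter without A-549 replicate 2), miR-182-5p in A-549 against MV3 from -0.0022 (without A-549 replicate 2) to 0.21, miR-96-5p in ES-2 against MV3 from -0.64 to 0.61 (above 0 without ES-2 replicate 1 and without MV3 replicate 2), and miR-96-5p in MV3 against Hep-G2 from -0.94 to 0.31 (the latter without MV3 replicate 1).

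Between A-549 and ES-2, 2 members were called with TMM, 2 with edgeR and 3 with DESeq2, and 0 to 2 on leaving out 1 library. Between A-549 and MV3, 1 was called with a pseudocount of 0.5, without the filter, with the filter at 100 CPM, with a replicate block, in the NEXTflex libraries alone and (chosen after seeing the data) without BE(2)-C, and 1 to 2 on leaving out 1 library. Between ES-2 and MV3, 0 were called with limma on TMM or quantile scaling, edgeR and DESeq2 (also 0 at an unadjusted p under 0.05 in each), 1 with the deposited values, a pseudocount of 0.5, no filter or a replicate block, and 0 to 2 on leaving out 1 library (0 without MV3 replicate 2, where 1 was at an unadjusted p under 0.05). For ES-2 against Hep-G2 the count was 4 with quantile scaling and 1 with the filter at 100 CPM, which removes miR-183-3p. Replicate numbers did not pair the libraries (correlations of deviations between -0.053 and 0.109, 1 of 10 over 0.1), and the replicate block moved no other count of members by over 1.5 times.

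With the Kruskal-Wallis statistic the adjusted p was 0.0721 for miR-96-5p to miR-182-5p across 6 lines and 0.133 for miR-182-5p to miR-183-5p within the NEXTflex lines. The latter ranged from 0.0889 to 0.356 on leaving out 1 library, where only 45 assignments remain (15 without PANC-1). With 45 assignments, a ratio that alone has the smallest p cannot go below 0.0889. This floor was met without either A-549 library, where the loss says little about stability. Without any one library of ES-2 or MV3 the value lay above the floor, so the ratio no longer had the smallest possible p. The span of line means stayed between 0.71 (without A-549 replicate 2) and 0.95 (without A-549 replicate 1) on the log2 scale. The ratio of miR-183-3p to miR-183-5p across 6 lines gave 0.00539 with 5 reads added and 0.0269 to 0.505 on leaving out 1 library. The cause of these changes was not tested. Depth limits miR-183-3p throughout and miR-96-5p in BE(2)-C.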
